A study of Mus musculus with 2 samples.

Results

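The genes described here are 10 antioxidant and detoxifying genes linked to the transcription factor NRF2, measured in mouse CD8 T cells with and without added cholesterol. They were taken by gene symbol from the authors' annotated array table, and each of the 10 was found with 1 probe set, among 21877 genes in all. Total RNA was biotin-labelled by a whole-transcript method and measured on 1 array of cells given cholesterol and 1 array of untreated cells. Both cultures were held under Tc1 cytokines, the type 1 cytokines that drive CD8 T cells toward interferon gamma production and killing. The sources used here do not state the dose, length or vehicle of the cholesterol treatment, or the strain and organ the cells came from. With 1 array per group there is no replicate error and no p-value, so every difference below compares these 2 arrays only, and their number limits the precision.

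NRF2, encoded by Nfe2l2, is held in the cytoplasm and marked for destruction by KEAP1 until oxidants or electrophiles modify KEAP1. It then enters the nucleus, pairs with small MAF proteins and binds antioxidant response elements, where BACH1 and BACH2 compete with it as repressors. Its targets form several arms. One makes and uses glutathione, another keeps thioredoxin and the peroxiredoxins reduced, another breaks down heme, and others reduce quinones. Activated T cells draw on glutathione and thioredoxin during their growth, since both systems supply electrons for DNA synthesis and remove peroxides.

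The signals are linear intensities in the authors' units. They ran from 4.42 to 11607 over the annotated probe sets of the cholesterol array and from 4.57 to 10801 over those of the untreated array, with medians of 46.6 and 48.1. The 95th percentile of the 5222 negative control probe sets was 121.8 on the cholesterol array and 130.3 on the untreated array. A signal at or below it is called within the negative control range. A gene within this range on both arrays gets no fold, and a gene within it on the dimmer array gets a fold as a lower bound. Of the 10 genes, 6 lay above the range on both arrays, Hmox1 lay above it on the untreated array only, and Srxn1, Slc7a11 and Nqo1 lay within it on both. The CD8 T cell label held on both arrays. Cd8a had signals of 3780 with cholesterol and 3274 untreated, and Cd3d of 2188 with cholesterol and 1592 untreated. All 8 T cell markers examined lay above the negative control range on each array. All 8 were higher with cholesterol, as were 61.9% of all genes above that range on both arrays.

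RefSeq promoter windows, from 250 bases before a transcript start to 50 after it, were held for 8 of the 10 genes on GRCm38.p6. They are shown where they carry the core of the antioxidant response element, written TGACNNNGC and searched on both strands. The core was present in 4 of these 8 genes and in 4 of their 13 windows, against 14.0% of 27025 genes and 12.4% of 32851 windows overall. These 4 were Prdx1, Txnrd1 and Srxn1 of the thioredoxin arm and Gclm of the glutathione arm. The Srxn1 match began 29 bases into the transcript and is not printed. The other 3 are given with the core in capitals, 5′ to 3′ along the gene's strand, and each core lies on the opposite strand, so that it reads GCNNNGTCA here. They come from Prdx1 (chr4:116685440-116685500, plus strand), Txnrd1 (chr10:82859088-82859148, plus strand) and Gclm (chr3:122245397-122245457, plus strand).
Prdx1: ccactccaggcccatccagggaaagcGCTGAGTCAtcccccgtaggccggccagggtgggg
Txnrd1: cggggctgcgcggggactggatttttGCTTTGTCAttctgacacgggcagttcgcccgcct
Gclm: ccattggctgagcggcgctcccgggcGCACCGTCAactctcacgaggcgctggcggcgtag

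The cores began 133 bases before the start in Prdx1, 92 before 1 of the 3 Txnrd1 starts and 134 before the start in Gclm. The Prdx1 core also holds TGAGTCA, the reverse complement of TGACTCA, which is the AP-1 element and can overlap an antioxidant response element. TGACTCA was searched on both strands after these sequences had been read. It was in the windows of 2 of the 8 genes, Prdx1 and Srxn1, against 5.95% of all genes with a window. Both genes held it at 2 places, and the Srxn1 stretch around the one nearer the start, which began 45 bases before it, is shown with the element in capitals (chr2:152105453-152105511, plus strand).
Srxn1: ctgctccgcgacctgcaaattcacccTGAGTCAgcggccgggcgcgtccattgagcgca

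A match describes letters in a window and is not a measured binding site. The windows of Txn1, Slc7a11, Nqo1 and Gpx4 held no TGACNNNGC, but sequence outside the windows was not searched. Hmox1 and Gclc had no window. Genes with a core stood in both arms, and 2 of the 3 printed cores belong to genes that were lower with cholesterol, Prdx1 and Txnrd1, while Gclm was level. The genes without a core were split as well. Txn1 and Nqo1 were lower, at log2 differences (cholesterol minus untreated) of -0.22 and -0.30. Slc7a11 and Gpx4 were at -0.022 and 0.081. Neither Nqo1 nor Slc7a11 exceeded the negative controls, and 47.7% of all genes were lower. Whether a core goes with the direction of a gene was not tested.

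The thioredoxin and glutathione arms differed in these arrays. The 4 thioredoxin genes were all lower with cholesterol, with -0.32 as the median of their log2 differences (cholesterol minus untreated). Neither signal of Srxn1 exceeded the negative controls, and the 3 thioredoxin genes measured above them had a median of -0.22. Of all genes 47.7% were lower, and 37.2% of those above the negative controls on both arrays. The 4 glutathione genes were level, with a median of -0.0068 and a range of -0.029 to 0.081. Slc7a11 did not exceed the negative controls either, and the 3 glutathione genes that did had a median of 0.0088. Hmox1, the heme gene, was at -1.01 from a cholesterol signal within the negative control range, so that only a bound of at least 1.15-fold lower can be given. Nqo1, the quinone gene, was at -0.30 with both signals within that range. The thioredoxin median ran from -0.34 to -0.22 over the scalings and filters tried, and the glutathione median from -0.023 to 0.037, so its sign was not fixed. The difference between the arms has no replicate test.

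**Figure D1:**
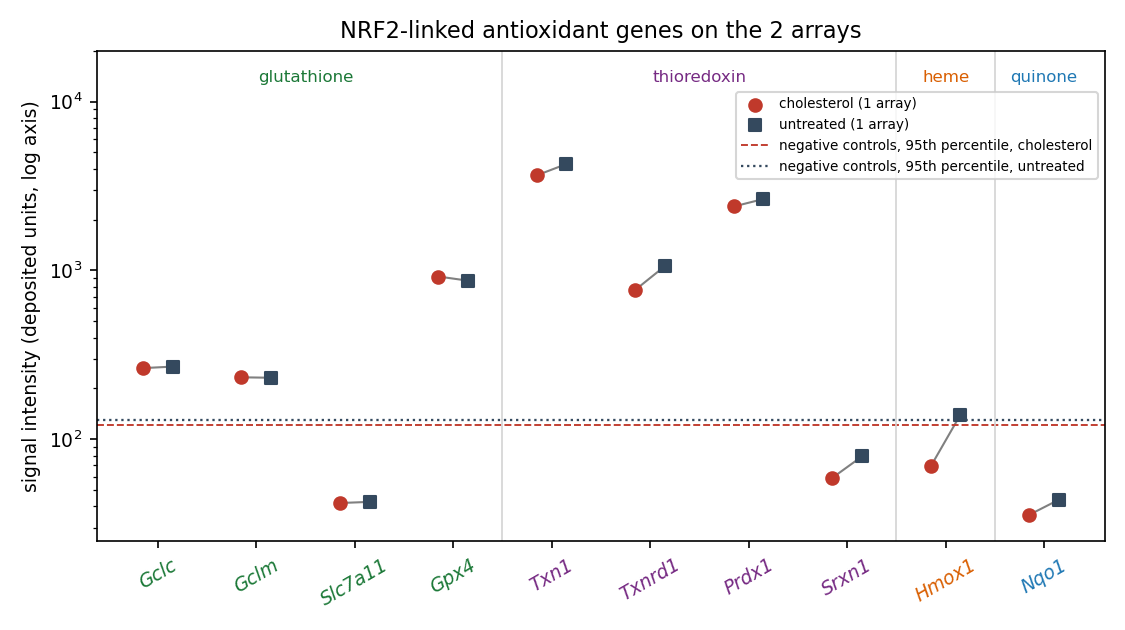
Signal intensity (deposited units, log axis) of the 10 genes on the cholesterol array (red circles) and the untreated array (dark squares), grouped by arm, with dashed and dotted lines at the 95th percentile of the negative controls of each array. Heights may be compared between the 2 arrays for a gene, not between genes; the 4 thioredoxin genes slope one way, the glutathione genes are nearly level, and Hmox1 crosses the lines.

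The thioredoxin arm starts with Txnrd1, the cytosolic thioredoxin reductase, a selenoprotein that passes electrons from NADPH to thioredoxin. Txnrd1 had a signal of 768 with cholesterol and 1061 untreated, a log2 difference of -0.47, which is 1.38-fold lower. Txn1, thioredoxin itself, had a signal of 3661 with cholesterol and 4267 untreated, which is 1.17-fold lower. Prdx1, a peroxiredoxin that removes hydrogen peroxide and is reduced by thioredoxin, had a signal of 2392 with cholesterol and 2648 untreated, which is 1.11-fold lower. The reductase thus differed most among these 3 genes, and its substrate and the peroxidase less. Srxn1, sulfiredoxin, repairs overoxidised peroxiredoxins. It had a signal of 59.1 with cholesterol and 79.1 untreated, a log2 difference of -0.42 that carries no fold, since both signals are within the negative control range.

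Differences between the 2 arrays narrow as signal grows, so each gene was set beside the 500 genes nearest to it in mean log2 signal, as a description of these arrays and not a test. For Txnrd1, 9 of the 500 had a lower log2 difference, and the central 95% of them ran from -0.36 to 0.48. For Txn1, 10 of the 500 had a lower difference, with a central 95% of -0.22 to 0.34. For Prdx1, 39 of the 500 were lower, with a central 95% of -0.24 to 0.37. Txnrd1 and, narrowly, Txn1 thus lay below the central range of genes of like signal, while Prdx1 lay inside it. For Srxn1, 50 of the 500 were lower, inside a wider central range of -0.77 to 0.66.

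**Figure D2:**
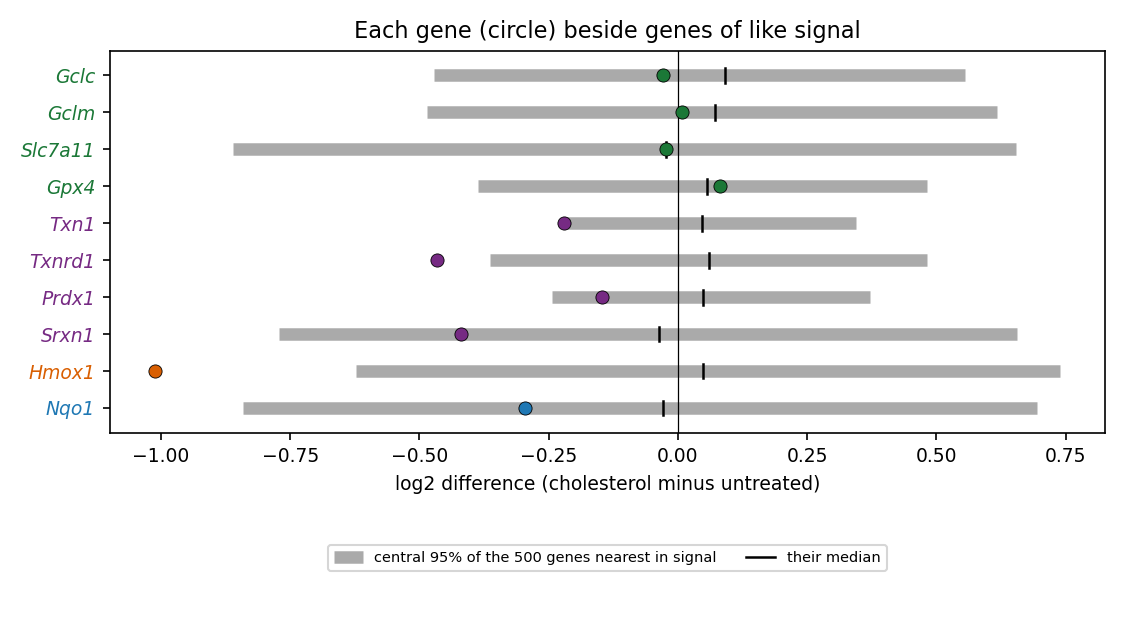
Log2 difference (cholesterol minus untreated, horizontal axis) of each of the 10 genes (circles, coloured by arm), with a grey band for the central 95% and a black tick for the median of the 500 genes nearest to it in signal. Txnrd1 at -0.47 lies left of its band, Txn1 at -0.22 at the edge of its band, and the 4 glutathione genes close to the ticks; Hmox1 is drawn at its deposited value of -1.01, which rests on a cholesterol signal within the negative control range, and Srxn1, Slc7a11 and Nqo1 were within it on each array.

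The glutathione arm held both subunits of glutamate-cysteine ligase, the first and limiting enzyme of glutathione synthesis. The catalytic subunit Gclc had a signal of 264 with cholesterol and 269 untreated, a log2 difference of -0.029. The modifier subunit Gclm had a signal of 233 with cholesterol and 231 untreated, a log2 difference of 0.0088. Both signals of each subunit were above the negative control range, and the sign of each difference changed with the scaling, from -0.11 to 0.014 for Gclc and from -0.063 to 0.053 for Gclm. Gpx4, the selenoprotein glutathione peroxidase that reduces lipid hydroperoxides in membranes and guards against ferroptosis, had a signal of 919.6 with cholesterol and 869 untreated. Its log2 difference of 0.081 stayed positive, from 0.018 to 0.12 over the scalings. Slc7a11, the light chain of the cystine importer xCT, had a signal of 41.9 with cholesterol and 42.6 untreated, in the negative control range on each array. Among the 500 genes of like signal, 152 had a lower log2 difference than Gclc, 188 than Gclm, 269 than Gpx4 and 252 than Slc7a11.

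The heme arm held Hmox1, heme oxygenase 1, which opens the heme ring to give biliverdin, iron and carbon monoxide. Hmox1 had a signal of 69.3 with cholesterol and 139.8 untreated, a log2 difference of -1.01. The untreated signal was just above the 95th percentile of the negative controls, and the cholesterol signal was within their range, so Hmox1 was at least 1.15-fold lower. The 500 genes of like signal had a central 95% of -0.62 to 0.74, and since the Hmox1 difference rests on a signal within the background, its place below that range is not determined. With an offset of 50 added to each signal before the log, the difference was -0.67. Nqo1, a quinone reductase often used to report NRF2 activity, had a signal of 35.7 with cholesterol and 43.9 untreated. Both were within the negative control range, and 114 of the 500 genes of like signal had a lower log2 difference.

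Hmox1 is also strongly expressed by macrophages, and many but not all markers of other cell types were lower with cholesterol too. Of 10 macrophage and dendritic cell markers, 7 were lower with cholesterol, against 47.7% of all genes. For 7 of the 10, neither array gave a signal above the negative controls. The summed signal of the 10 was 1155 with cholesterol and 2093 untreated. Cd74 and H2-Aa made up most of both sums and most of the gap between them. Cd74, the MHC class II chaperone, had 562 against 1288, and H2-Aa, an MHC class II chain, 215 against 398. Cd68, a lysosomal protein of macrophages and the only other marker of this list above the negative controls on both arrays, was higher, at 181 against 145, a log2 difference of 0.32. Adgre1 and Cd14 were also not lower, at 0.035 and 0.18. The macrophage markers Adgre1, Csf1r and Lyz2 lay in the negative control range on each array, with Lyz2 at 47.7 with cholesterol and 78.8 untreated. All 7 B cell markers were lower, with a summed signal of 430 against 724. All 4 CD4 T cell markers had negative differences, with Zbtb7b nearly level at -0.011, and summed to 717 against 959, while 4 of 5 erythroid markers were lower, all 5 of them within the negative control range, at 133 against 167 in sum. The part of these cells in the Hmox1 difference was not tested, and fewer cells of a type cannot be told apart from less RNA per cell.

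As a set, 8 of the 10 genes were lower with cholesterol and 2 higher, with a median log2 difference of -0.18, and 47.7% of all 21877 genes were lower. Centring the arrays on their medians, which moved them by 0.044 in log2, turned the split to 6 lower and 4 higher, with 40.6% of all genes lower. In the deposited signals, without regard to background, 1 of the 10 was past 1.5-fold lower, Hmox1, and 0 were higher, while 3.91% of all genes were lower and 2.73% higher by that much. Among the 6 genes above the negative controls on both arrays, 4 were lower, with a median of -0.088, against 37.2% of genes so measured. Of these 6, 0 were past 1.5-fold in either direction. At a smaller threshold, a log2 difference of 0.32, the deposited signals put Hmox1, Txnrd1 and Srxn1 lower and 0 higher, against 13.2% of all genes lower and 12.0% higher. Of these 3 only Txnrd1 was above the negative controls on both arrays, where it was 1 of 309 of 7112 genes, or 4.34%, lower by that much. Leaving out Hmox1, a step added after seeing the data, gave a median of -0.15 over the other 9 genes.

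**Figure D3:**
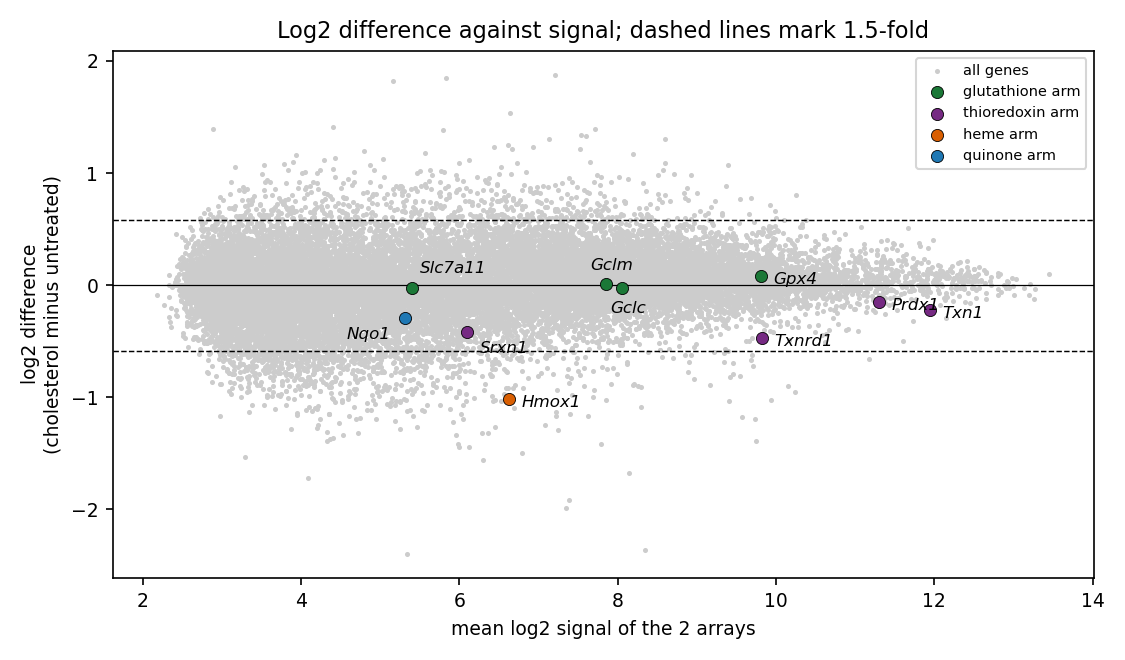
Log2 difference (cholesterol minus untreated, vertical axis) against mean log2 signal for all 21877 genes (grey) and the 10 genes (coloured by arm), with dashed lines at 1.5-fold. Of the 10, only Hmox1, whose cholesterol signal is within the negative control range, lies past a dashed line. Txnrd1 lies low in the grey cloud, with 9 of the 500 genes nearest to it in signal lower still.

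The genes that control NRF2 were close to level. Nfe2l2 had a signal of 186 with cholesterol and 176 untreated, 1.06-fold higher. Keap1, its adaptor for degradation, was 1.11-fold higher, at 437 with cholesterol and 394 untreated. The repressors Bach1 and Bach2 were 1.11-fold and 1.17-fold higher, with Bach2 at 671 with cholesterol and 571 untreated. Sqstm1, the autophagy receptor p62 that can bind KEAP1 and is itself an NRF2 target, was 1.19-fold higher, at 668 with cholesterol and 560.2 untreated. Nfe2l1, a relative of NRF2, was 1.16-fold lower. The small MAF genes Mafg and Mafk, at log2 differences of 0.16 and 0.074, lay in the negative control range on each array. Of the 12 regulators, 8 were higher, against 49.8% of all genes, and 4 lower, with a median of 0.077 and 0 past 1.5-fold. Over this and the other wider lists, 11 of 48 named genes changed sign with the scaling, and none of these 11 differed by more than 1.04-fold.

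Outside the 4 genes above, the thioredoxin list was not lower as a whole. Of its other 20 genes, 9 were higher and 11 lower, against 49.8% and 47.7% of all genes. The median log2 difference of the 20 was -0.018, with 0 past 1.5-fold. Txnip, which binds thioredoxin and blocks it, was 1.29-fold higher, at 2505 with cholesterol and 1944 untreated. The mitochondrial reductase Txnrd2 was 1.35-fold higher, at 261 with cholesterol and 193 untreated, while mitochondrial thioredoxin, Txn2, was 1.08-fold lower. The reductases of the cytosol and the mitochondria thus differed in opposite directions. Among the peroxiredoxins, Prdx4 of the endoplasmic reticulum was just under 1.5-fold higher, at 486 with cholesterol and 325 untreated, and past it, at a log2 difference of 0.63, after centring. Prdx2, Prdx3, Prdx5 and Prdx6 had log2 differences of -0.023, -0.053, -0.014 and 0.023.

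In the wider glutathione list, 17 of the other 32 genes were higher and 14 lower, against 49.8% and 47.7% of all genes. The median of the 32 was 0.018. Slc3a2, the heavy chain that pairs with xCT and with other amino acid transporters, was 1.16-fold lower, at 2227 with cholesterol and 2592 untreated. Gsr, which regenerates reduced glutathione with NADPH, had an identical signal of 524 on both arrays, and Gss, glutathione synthetase, lay within the negative control range at 86.7 with cholesterol and 87.2 untreated. The peroxidase Gpx1 was 1.11-fold lower. Among genes measured above the negative controls on both arrays, those that differed most were the transferases Gstt2, 1.44-fold higher, and Mgst2, 1.40-fold higher, and Abcc1, an exporter of glutathione and its conjugates. Abcc1 was 1.49-fold lower, at 305 with cholesterol and 454 untreated, and past 1.5-fold after quantile normalization and loess, at -0.64 and -0.65. Past 1.5-fold, 3 of the 36 listed genes were higher and 1 lower in the deposited signals, against 2.73% and 3.91% of all genes. Of the 17 listed genes above the negative controls on both arrays, 0 passed as deposited. Ggt1, which splits glutathione outside the cell, was at least 1.16-fold higher, at 150.6 with cholesterol and 63.4 untreated, and Gstm1, Mgst3 and Oplah lay in the negative control range on each array.

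In the heme and iron list, the 24 genes beside Hmox1 were centred near 0, with a median log2 difference of 0.016. Of these 24, 14 were higher and 9 lower, against 49.8% and 47.7% of all genes, and 0 were past 1.5-fold. Hmox2, the constitutive heme oxygenase, was 1.08-fold higher, at 865 with cholesterol and 801 untreated. Blvra, which reduces biliverdin, was 1.04-fold higher, and the second biliverdin reductase, Blvrb, was at least 1.13-fold lower, at 105 with cholesterol and 138 untreated. Alas1, the first enzyme of heme synthesis, was level at 389 with cholesterol and 394 untreated. The ferritin chains store iron, and the light chain Ftl1 was 1.35-fold lower, at 1367 with cholesterol and 1847 untreated, while the heavy chain Fth1 was level at 5063 with cholesterol and 5163 untreated. Ncoa4, the receptor that delivers ferritin for degradation, was 1.23-fold higher, the iron importer Slc11a2 1.24-fold higher, and the transferrin receptor Tfrc 1.04-fold higher.

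Other detoxifying and NADPH-supplying genes differed in both directions. Nqo2, a relative of Nqo1, was 1.56-fold higher, at 238 with cholesterol and 153 untreated, the only gene of the quinone and aldehyde list past 1.5-fold and above the negative controls on both arrays. Its log2 difference of 0.64 became 0.57 after quantile normalization and 0.58 after loess, both under that threshold, and 0.51 with the offset. In that list, Cbr3 and Aldh3a2 were also past 1.5-fold higher in the deposited signals, as were 2.73% of all genes. Of the 19 genes beside Nqo1, 11 were higher and 8 lower, against 49.8% and 47.7% of all genes. Ephx1 was 1.16-fold lower and Esd 1.08-fold lower. In the NADPH list, 11 of 16 genes were lower, against 47.7% of all genes, with a median of -0.13 and 0 past 1.5-fold. Of the 12 above the negative controls on both arrays, 8 were lower, against 37.2% of genes so measured. G6pdx, the first enzyme of the pentose phosphate pathway, was 1.29-fold lower, at 633 with cholesterol and 817 untreated. The NAD kinase Nadk was 1.23-fold lower and the mitochondrial Nadk2 1.36-fold higher.

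Enzymes that act directly on superoxide and hydrogen peroxide were nearly level. Sod1, the cytosolic superoxide dismutase, was 1.02-fold lower, mitochondrial Sod2 1.05-fold higher and catalase, Cat, 1.04-fold higher, at 1611 with cholesterol and 1553 untreated. Ccs, the copper chaperone of SOD1, was 1.32-fold higher. The NADPH oxidase subunits Ncf1 and Ncf4 were 1.33-fold and 1.18-fold higher, while the subunit Cyba was 1.13-fold lower, at 861 with cholesterol and 969 untreated. Cybb, the catalytic subunit of the phagocyte NADPH oxidase, had signals of 52.0 with cholesterol and 129.7 untreated, both within the negative control range, so no fold is given.

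Txnrd1 and Gpx4 are selenoproteins, and the listed genes for making selenoproteins were all higher with cholesterol. All 8 had positive log2 differences, from 0.082 to 0.53, with a median of 0.28 that stayed between 0.17 and 0.33 over the scalings and filters tried. None of the 8 passed 1.5-fold, and 49.8% of all genes were higher at all. Only 4 of the 8 were above the negative controls on both arrays, with a median of 0.17, and among genes so measured 61.9% were higher. Pstk and Trnau1ap were within the negative control range on each array, and Sephs2 and Sepsecs on the untreated one. Sephs2, which makes selenophosphate, was at least 1.38-fold higher, at 179 with cholesterol and 124 untreated. Eefsec, the selenocysteine elongation factor, had a signal of 483 with cholesterol and 387 untreated. Scly, which releases selenium from selenocysteine, was 1.19-fold higher and Secisbp2, which binds selenoprotein mRNAs, 1.06-fold higher. On the same arrays Txnrd1 was lower, at a log2 difference of -0.47, and Gpx4 was at 0.081.

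**Figure D4:**
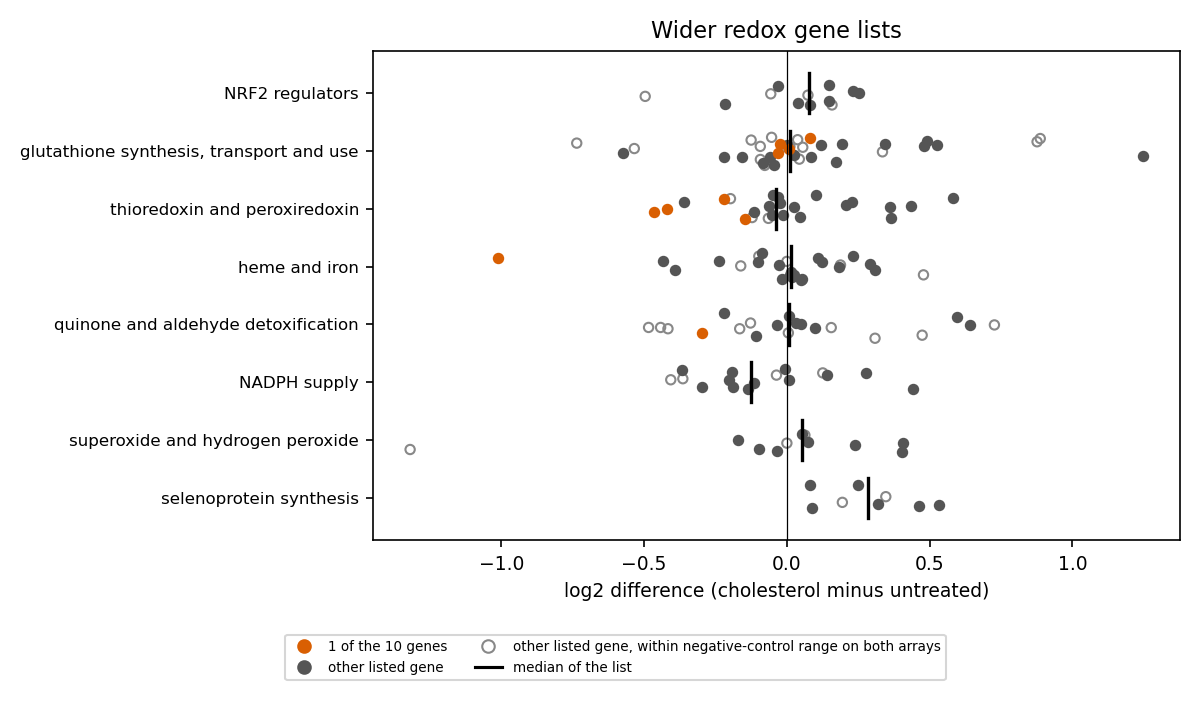
Log2 difference (cholesterol minus untreated, horizontal axis) of each gene in 8 redox gene lists, with the 10 genes in orange, other genes filled or, where in the negative control range on each array, open, and a black tick at each list's median. The medians run from -0.13 for NADPH supply to 0.28 for selenoprotein synthesis, and the orange thioredoxin genes and Hmox1 lie left of the ticks of their lists.

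The authors' annotation tied the genes together by process. Response to oxidative stress was listed for 9 of the 10, all but Txn1, and for 131 genes in all. These 131 had a median log2 difference of 0.0088, with 2 past 1.5-fold higher and 4 lower, against 2.73% and 3.91% of all genes. Glutathione metabolic process was listed for Gclc, Gclm and Gpx4 and for 51 genes in all, with a median of 0.021. Cell redox homeostasis was listed for Txnrd1, Txn1 and Gclc and for 57 genes, with a median of 0.023 and 0 past 1.5-fold in either direction. Genes sharing these annotations were centred near 0, as were all genes, whose median was 0.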

How the data were processed

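The authors deposited linear signal intensities for 28846 probe sets on each array, and a ratio of cholesterol over untreated for 22206 annotated probe sets, per the file headers. How the signals were extracted, background-corrected and normalized, and on which genome build, is not given in the sources used here. A second deposited table repeated the intensities, with a largest difference of 0, and the deposited ratio equalled the quotient of the signals within 1e-09.

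Of the annotated probe sets, 31 without a single usable symbol were left out. The remaining 22175 named 21877 genes, and the brightest probe set by mean log2 stood for each of the 201 genes with several. Differences are log2 of the deposited signal, cholesterol minus untreated. Counts over listed genes cover every measured gene, and the filter on brightness (a signal of 47.4 on the brighter array, passed by 11327 genes and by 8 of the 10) is an alternative. Lists held 152 memberships, all matched, 1 through a synonym (Flvcr1).

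The 10 genes and all lists were chosen with earlier results of these data known. Named genes are the 10, 3 per pathway list by size of difference above the negative controls, and a set of pathway genes. Other names, among them Cd8a, Cd3d, the macrophage markers, Ggt1, Gstm1, Mgst3, Oplah, Cbr3, Aldh3a2, Cybb and Cyba, were chosen after their values were seen, as were the annotation terms. Alternatives were centring, quantile normalization, loess (fraction 0.4), an offset of 50, the mean of all probe sets and filters on signal. The procedure was run on simulated data with noise scaled to the spread of these arrays. Differences were planted in bright genes only, so dim genes such as Hmox1, Srxn1, Slc7a11 and Nqo1 were not covered. Python 3.11.15, pandas 2.3.3 and statsmodels 0.14.6 were used.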

Additional observations from a re-analysis of the deposited data

How the results depend on the processing

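No replicate could be left out with 1 array per group, and no paired analysis was possible because each group has 1 array. A shift above 0.16 on the log2 scale was taken as a move, that being the median disagreement between the brightest pair of probe sets of 114 genes. An offset of 50 before the log moved Hmox1 to -0.67, Nqo1 to -0.13 and Srxn1 to -0.24, and lowered the share of all genes past 1.5-fold to 0.457% higher and 0.389% lower, since it shrinks differences of dim genes by construction. Over genes above the negative controls on both arrays, 0 of the 6 remaining were lower by 1.5-fold, as Hmox1 leaves, and 1.62% of genes were higher and 0.914% lower. At the smaller threshold of 0.32 in log2, 3 of the 10 were lower, with 12.0% of all genes higher and 13.2% lower, and at 2-fold these shares were 0.233% and 0.498%. The median of the 10 stayed between -0.23 and -0.14 over the scalings and summaries tried. Over the 6 above the negative controls on both arrays it was -0.088. All genes past 1.5-fold split into 597 higher and 856 lower as deposited, 752 and 684 after centring. Txnrd1, Txn1, Prdx1 and Hmox1 kept their direction under centring, quantile normalization and loess. Gclc, Gclm and Slc7a11 changed sign under at least 1 of these. The offset cannot change a sign, and the mean of all probe sets leaves the 10 genes unchanged, since each has 1 probe set. List medians changed sign for the thioredoxin list after centring (0.0041), and for the heme and iron list (-0.046 and -0.039) and the quinone list (-0.034 and -0.045) after quantile normalization and loess. Signals near the background limit Hmox1, Srxn1, Slc7a11 and Nqo1.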

Other observations

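Identical signals on both arrays were found for 554 of the 21877 genes, or 2.53%, among them Gsr, Slc40a1 and Sod3. Their log2 difference of exactly 0 therefore carries no measure of the spread between arrays.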
